A study of Mus musculus with 6 samples.

Results

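The transcription factors that set the fate of gastric and other gut epithelial cells were examined in the antrum of Satin, Beige and BL6 mice. The set held 10 genes, Sox2, Sox4, Sox21, Foxa1, Foxa2, Pdx1, Gata4, Gata6, Klf4 and Spdef, and was defined by name: every probe set that the platform annotation gives to one of these symbols was taken, which was 19 of the 22690 probe sets and 10 of the 12393 genes on the arrays. Antral RNA of each strain was hybridized to 2 arrays, 6 in all. Satin mice carry a mutation of the forkhead gene Foxq1 and Beige mice a mutation of Lyst, as is known of these coat strains, and the C57/BL6 (BL6) and Beige arrays are titled as controls. The labels give no allele, age or treatment for any strain, so alleles and backgrounds shared by Satin and Beige mice are not known here. They also do not say whether an array holds RNA of 1 mouse, so the p-values rest on a spread between arrays that may be technical.

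The antrum is the distal part of the glandular stomach, where surface mucous cells, gland mucous cells and hormone cells arise from shared progenitors. Sox2 marks the embryonic foregut and gastric progenitors, Gata4 and Gata6 are zinc finger factors of the endoderm, and Foxa1 and Foxa2 are forkhead factors that open chromatin for other regulators. Pdx1 is restricted to the antrum, duodenum and pancreas and is needed for gastrin cells, Klf4 is a zinc finger factor of post-mitotic epithelium, and Spdef is an Ets factor of mucus-secreting cells. Sox21 belongs to the same SoxB family as Sox2 and acts mainly as a repressor, while Sox4 is a SoxC factor of immature and progenitor cells. All are expressed in epithelium, and their expression in other cells of the antrum was not examined. In whole antral RNA a change in the number of cells of a type and a change in RNA per cell cannot be told apart.

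Of the 10 genes, Sox4 rose in the Satin antrum and 9 did not pass the test. Sox4 was 2.16-fold higher in Satin than in the mean of both control strains. Sox21, Foxa1 and Spdef had the next smallest p-values, at 1.79-fold, 1.56-fold and 1.40-fold the control level, and none of these 3 passed. Across all 9395 genes tested, 1.44% were called in either direction and 0.436% were called higher. Calls required an adjusted p under 0.05 (Benjamini-Hochberg) in a limma fit of all genes. Differences are on the log2 scale of quantile normalized log2(signal + 32), called the log2 level below, where a difference of 1 is a factor of 2 at bright probe sets and understates the change of dim ones. On this scale 7 of the 10 genes lay above 0 in Satin, with a median difference of 0.30, against 49.8% of all genes tested and their median of -0.00. For 6 of the 10 genes both Satin arrays lay above all 4 control arrays, as did 10.9% of all genes tested. The members were chosen with earlier results of these data known, so these shares and medians are descriptions. Whether the set as a whole differed was not tested.

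**Figure D1:**
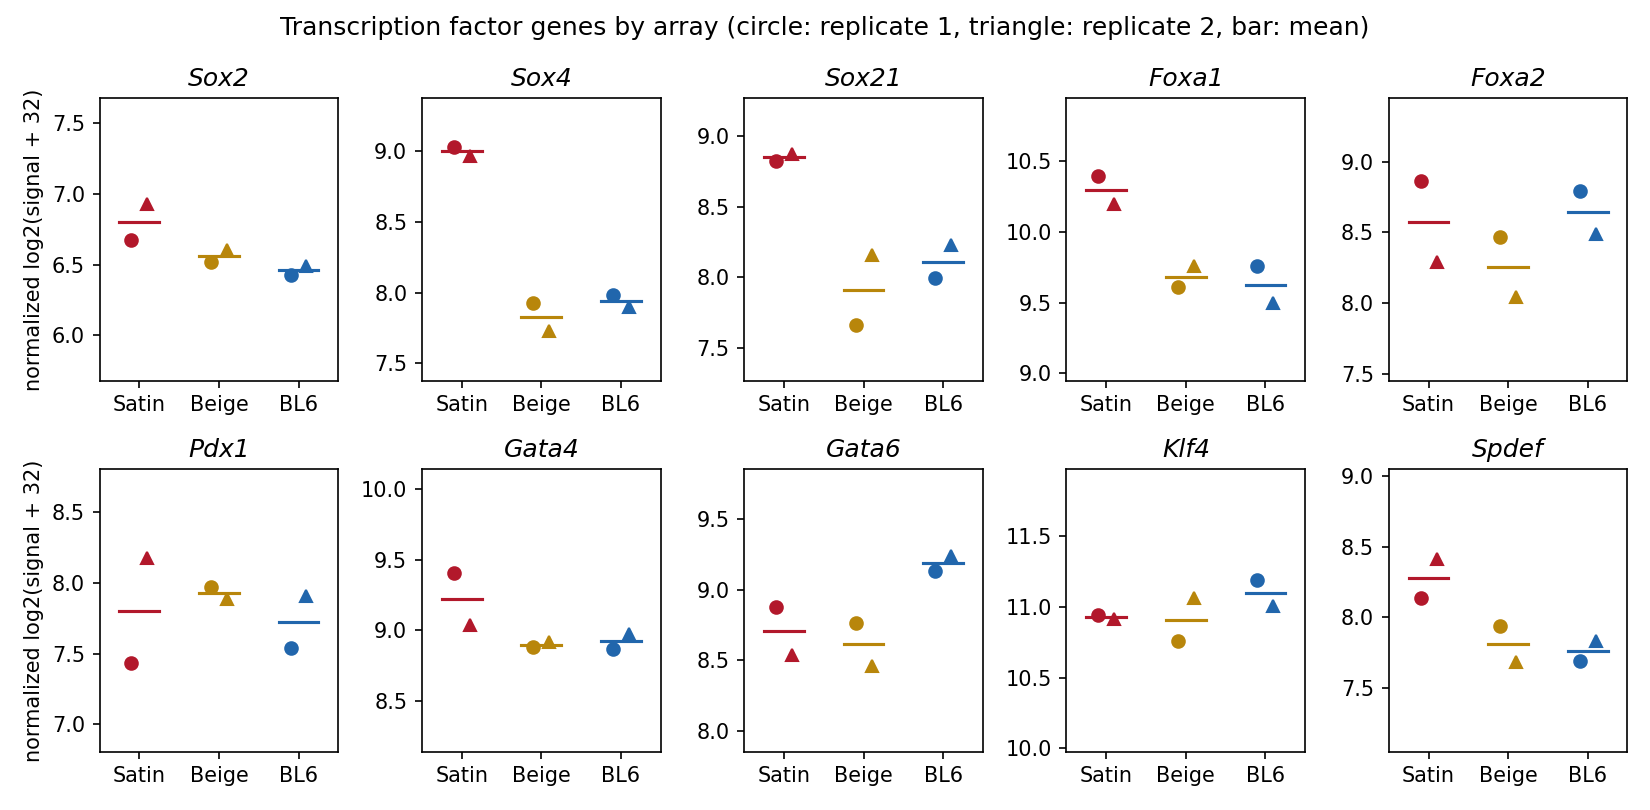
Log2 level of the 10 transcription factor genes on each array (y axis, normalized log2(signal + 32), a span of 2 in every panel) by strain (x axis), with a circle for replicate 1, a triangle for replicate 2 and a bar for the mean of the 2 arrays. Both Satin arrays stand above the 4 control arrays for Sox2, Sox4, Sox21, Foxa1, Gata4 and Spdef, with the widest gap for Sox4.

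The gastrin gene Gast had mean log2 levels of 10.63 in Satin, 12.14 in Beige and 11.94 in BL6. The gastric trefoil gene Tff1 was at 13.23 in Satin, 13.24 in Beige and 13.02 in BL6. Parietal cell genes gave signal on all arrays too. The summed signal of 10 such genes was 24536.8 and 15256.9 in Satin, 14301.9 and 13063.2 in Beige, and 8437.7 and 12636 in BL6. These values are in the order of replicate 1 and 2. Whether the sampled part of the stomach differed between arrays was not tested. Median signals were 74.15 and 58.6 in Satin, 49.5 and 49 in Beige, and 47.6 and 38.2 in BL6, so the scaling between arrays bears on the size of each difference and on the sign of small ones. With quantile normalization 41 genes were called higher and 94 lower in Satin against both controls. Without any scaling it was 1469 higher and 62 lower, with median centring 46 and 46, and after scaling to the hybridization controls 1920 and 62. The median of all genes was 0.43 higher in Satin as deposited, 0.44 with the hybridization controls and 0.10 with median centring. RNA integrity, read as the 5' signal of Gapdh over its 3' signal, stood at 0.526 for BL6 replicate 1 and between 0.988 and 1.18 elsewhere. Pancreas transcripts stood out on all 3 replicate 2 arrays. The summed signal of the 8 pancreas markers on the array (of 10 listed, none of the 8 at 0) was 312.5 and 30908.5 in Satin, 404.3 and 6734.9 in Beige, and 241 and 57396.4 in BL6, in the order of replicate 1 and 2. Members such as Gata4, Gata6, Foxa2 and Pdx1 are also known to be expressed in pancreas, so values are given below by replicate number. Pancreatic expression of the other members, Sox4, Sox21 and Foxa1 among them, was not examined here. Their values are not known to be free of this admixture.

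Sox4 gave the clearest difference. Its brightest probe set had a deposited signal of 668.3 and 587.2 on the Satin arrays, against 176 and 191.1 in Beige and 178.6 and 163.1 in BL6. No control array came near the lower Satin array. The log2 level was 9.00 ± 0.04 in Satin, 7.83 ± 0.14 in Beige and 7.94 ± 0.06 in BL6 (mean ± SD, n = 2 arrays each), and Satin exceeded the mean of both controls by 1.11 (SE 0.15, limma adjusted p = 0.00916, 95% interval 0.77 to 1.46). It also rose against Beige (1.17, adjusted p = 0.0191) and against BL6 (1.05, adjusted p = 0.0377), comparisons that share the Satin arrays. Of all genes tested, 0.894% were called against Beige (0.224% higher) and 0.745% against BL6 (0.224% higher). The call against BL6 was lost with the replicate number as a block (adjusted p = 0.0585) and without a filter (0.0539), and with 1 array left out the adjusted p in limma ran from 0.0409 to 0.29 against BL6 and from 0.0129 to 0.199 against Beige. Against the mean of both controls, the adjusted p was above 0.05 without Satin replicate 1 (0.133), Satin replicate 2 (0.059), Beige replicate 1 (0.0539) or Beige replicate 2 (0.0684), while the difference stayed between 1.06 and 1.16 in these 4 fits. The call was also lost without the intensity trend in limma (0.0678).

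The other 5 probe sets of Sox4 were dimmer. In the fit of all probe sets past the filter, where the brightest Sox4 probe set had an adjusted p = 0.0125 and 1.02% of 15838 probe sets were called, 4 of these 5 were tested and none was called. Their differences were 0.64 (SE 0.32), 0.37 (SE 0.25), 0.28 (SE 0.26) and 0.54 (SE 0.31). The remaining probe set lay below the filter, with a plain difference of 0.83. All 6 Sox4 probe sets thus lay above 0 against the mean of both controls. The probe set with the difference of 0.64 had deposited signals of 125.5 and 99.8 in Satin, 5.4 and 25.4 in Beige, and 108.3 and 42.4 in BL6. After normalization BL6 replicate 1 (7.35) stood above both Satin arrays there (6.92 and 6.86). On this probe set Satin differed from Beige by 1.31 and from BL6 by -0.025, so it did not exceed BL6. With the mean of all 6 probe sets in place of the brightest, Sox4 differed by 0.63 and was not called (adjusted p = 0.185).

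**Figure D2:**
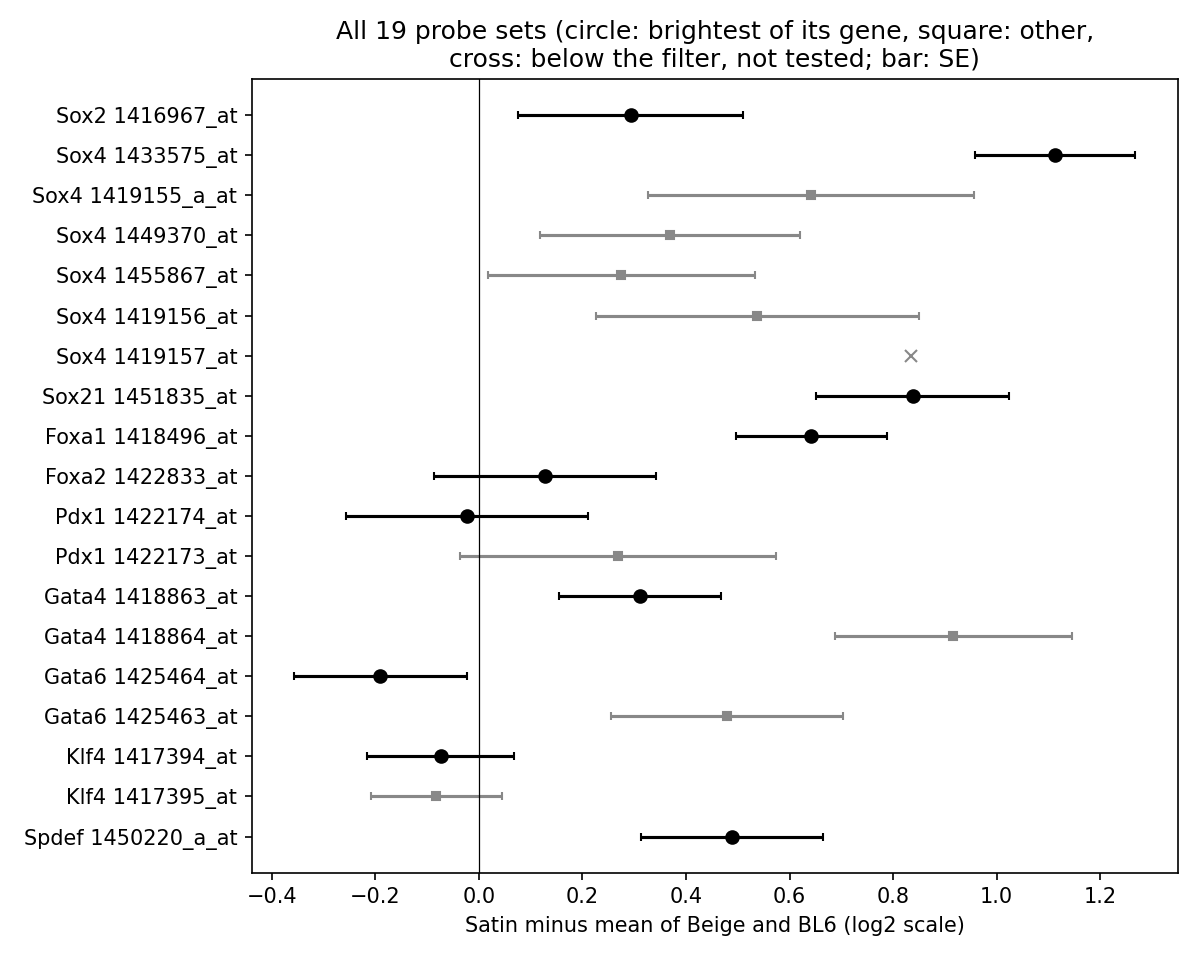
Difference between Satin and the mean of Beige and BL6 (x axis, log2 scale) for each of the 19 probe sets (y axis), with the SE as a bar; circles are the brightest probe set of a gene, squares the others, and the cross is the probe set below the filter. The Sox4 probe sets all lie right of 0, and the paired probe sets of Gata4 and of Gata6 lie apart from each other.

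Sox21, the other Sox gene with a small p, is measured by 1 probe set. Its deposited signal was 574.4 and 544.9 in Satin, against 143.9 and 276.6 in Beige and 179.7 and 212 in BL6. Both Satin arrays stood above all controls, and the Beige arrays were spread widely. The log2 level was 8.85 ± 0.04 in Satin, 7.91 ± 0.35 in Beige and 8.11 ± 0.17 in BL6 (mean ± SD, n = 2 each), a difference of 0.84 (SE 0.18, limma adjusted p = 0.0643). It passed without BL6 replicate 2 (adjusted p = 0.0404), the array with the most pancreas signal, and it passed as deposited (0.00213) and with the hybridization controls (0.00185). Without each of the other 5 arrays the adjusted p lay between 0.094 and 0.416, the highest without Satin replicate 1. Sox2, the SoxB1 factor of gastric progenitors, was dim, with deposited signals of 98 and 107.2 in Satin, 55.4 and 62.7 in Beige, and 49.1 and 42.9 in BL6. Its log2 levels of 6.67 and 6.93 in Satin stood above 6.52 and 6.60 in Beige and 6.43 and 6.49 in BL6, and the difference of 0.29 (SE 0.22) had a limma adjusted p = 0.66. Its 95% interval ran from -0.20 to 0.78. The difference was 0.16 without Satin replicate 2, and 0.68 both as deposited and with the hybridization controls, and none of these passed.

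Foxa1 and Foxa2, the paired forkhead factors, gave different values in Satin. Foxa1 had deposited signals of 1648.6 and 1398.1 in Satin, 632.9 and 933.5 in Beige, and 654 and 556 in BL6. The Satin arrays stood above all 4 controls, at a log2 level of 10.30 ± 0.14 in Satin, 9.68 ± 0.11 in Beige and 9.63 ± 0.18 in BL6 (mean ± SD, n = 2 each). The difference of 0.64 (SE 0.15) did not pass (limma adjusted p = 0.073), but did so without BL6 replicate 1 (0.0465), the array with the low Gapdh ratio. Without each of the other 5 arrays the adjusted p of Foxa1 lay between 0.0545 and 0.694, the highest without Satin replicate 1, and it passed as deposited (0.00356) and with the hybridization controls (0.00278). Foxa2 had log2 levels of 8.86 and 8.29 in Satin, against 8.47 and 8.04 in Beige and 8.79 and 8.49 in BL6. Its deposited signals did not overlap, at 592.7 and 351.4 in Satin, 268.5 and 249.5 in Beige, and 320.1 and 259.8 in BL6. After normalization the groups overlapped and the difference was 0.13 (SE 0.21, limma adjusted p = 0.872), with a 95% interval from -0.35 to 0.60. It was -0.16 without Satin replicate 1 and 0.41 without Satin replicate 2, 0.68 as deposited (adjusted p = 0.0553), and 0.69 with the hybridization controls, where it passed (0.0477). In each strain the Foxa2 level was lower on replicate 2, the arrays with the pancreas signal. The difference between both genes was not tested.

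The 250 bases before a RefSeq start (GRCm38.p6) were used for 8 of the 10 genes. No window was used for Gata4 and Gata6, which does not mean that they lack a RefSeq start. Those of Sox4, Sox21 and Foxa1, the 3 genes with the smallest p-values in Satin, are shown 5′ to 3′ on the strand of the gene, with capitals for matches to a forkhead core (TGTTTA on either strand) or a Sox core (ACAAAG on either strand):
Sox4, chr13:28953700-28953949, minus strand: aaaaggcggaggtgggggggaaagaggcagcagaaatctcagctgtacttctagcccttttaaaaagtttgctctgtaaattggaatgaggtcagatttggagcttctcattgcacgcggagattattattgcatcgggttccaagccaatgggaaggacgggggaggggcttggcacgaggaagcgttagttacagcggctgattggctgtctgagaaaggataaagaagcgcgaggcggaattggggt
Sox21, chr14:118237031-118237280, minus strand: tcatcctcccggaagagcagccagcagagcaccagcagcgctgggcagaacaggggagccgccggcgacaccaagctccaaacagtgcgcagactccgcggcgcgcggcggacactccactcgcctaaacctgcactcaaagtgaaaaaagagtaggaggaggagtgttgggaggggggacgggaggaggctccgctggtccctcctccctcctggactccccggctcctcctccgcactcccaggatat
Foxa1, chr12:57546112-57546361, minus strand: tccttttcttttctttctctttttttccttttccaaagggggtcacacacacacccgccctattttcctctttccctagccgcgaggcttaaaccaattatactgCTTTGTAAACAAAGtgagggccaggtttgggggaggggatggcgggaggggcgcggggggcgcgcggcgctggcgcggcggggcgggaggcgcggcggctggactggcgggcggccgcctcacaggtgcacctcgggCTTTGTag
Neither core occurred in the Sox4 and Sox21 windows. The Foxa1 window held 1 forkhead core, 140 to 135 bases before the start, and 3 Sox cores, of which 2 overlap that forkhead core. Among the windows of the 8 genes, those of Foxa1 and Klf4 held the forkhead core, as did 12% of 32851 windows of this length in the table, and 3 genes (Sox2, Foxa1 and Foxa2, in 1 of its 3 windows) held the Sox core, as did 16.5% of all windows. These matches describe the letters only.

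Gata4 and Gata6, zinc finger factors of stomach and other endoderm, each had a pair of probe sets that did not give the same picture. The brighter Gata4 probe set had log2 levels of 9.41 and 9.04 in Satin, 8.88 and 8.92 in Beige, and 8.87 and 8.97 in BL6. Satin replicate 2 was barely above the highest control, and the difference was 0.31 (SE 0.15, limma adjusted p = 0.463). It was 0.125 without Satin replicate 1 and 0.50 without Satin replicate 2, and it passed as deposited (0.85, adjusted p = 0.0216) and with the hybridization controls (0.865, adjusted p = 0.0101). With both probe sets averaged it was 0.61 and did not pass (0.205). The dimmer Gata4 probe set had deposited signals of 506.7 and 276 in Satin, 135.8 and 150.1 in Beige, and 86.7 and 114.9 in BL6, with no overlap. Its difference was 0.92 (SE 0.23), with an adjusted p = 0.131 over all probe sets. Among probe sets not used for a gene it was the one with the smallest p, as seen after the values were known.

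For Gata6 the probe sets differed in sign. The brighter one had log2 levels of 8.88 and 8.54 in Satin, 8.76 and 8.46 in Beige, and 9.13 and 9.24 in BL6, a difference of -0.19 from both controls (SE 0.17, limma adjusted p = 0.711), and this sign turned as deposited (0.36), with the hybridization controls (0.37) and with median centring (0.024). The dimmer one had 8.26 and 7.86 in Satin, 7.58 and 7.68 in Beige, and 7.21 and 7.85 in BL6, a difference of 0.48 (SE 0.22, adjusted p = 0.455 over all probe sets). On the brighter probe set both BL6 arrays stood above the other 4 arrays after normalization. Its deposited signals were 600 and 423.8 in Satin, 337.2 and 355.3 in Beige, and 408.4 and 459.7 in BL6, so that order did not hold there. Between the control strains it was lower in Beige by 0.57 (SE 0.19), the smallest p of the 10 genes in that comparison (limma adjusted p = 0.864), in which 0% of all genes were called and 5.13% had an unadjusted p under 0.05.

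Pdx1, which marks the antrum within the stomach, showed no consistent difference. Its brighter probe set had deposited signals of 197 and 319.9 in Satin, 181.5 and 219 in Beige, and 125.7 and 163.9 in BL6. The Satin arrays lay on both sides of the controls after normalization, at 7.43 and 8.18, against 7.97 and 7.89 in Beige and 7.54 and 7.91 in BL6. The difference was -0.02 (SE 0.23, limma adjusted p = 0.982, 95% interval -0.54 to 0.50), and its sign turned as deposited (0.49), with the hybridization controls (0.51) and with median centring (0.16). Compared within a replicate number, Satin minus the mean of Beige and BL6 was -0.32 for replicate 1 and 0.28 for replicate 2. Satin replicate 2 held 30908.5 of summed pancreas marker signal, and the part of that admixture in the Pdx1 level was not tested. The dimmer Pdx1 probe set differed by 0.27 (SE 0.30).

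Klf4 and Spdef act late, in differentiating epithelial cells. Klf4 was bright on all arrays, with deposited signals of 2428.6 and 2319.8 in Satin, 1506.2 and 2332.2 in Beige, and 1752.1 and 1789.5 in BL6 for the brighter of its probe sets. The normalized groups overlapped, and the differences of both probe sets were small, -0.07 (SE 0.14) and -0.08 (SE 0.13). The limma adjusted p of the gene was 0.891, its 95% interval ran from -0.40 to 0.25, and its sign turned as deposited (0.38), with the hybridization controls (0.39) and with median centring (0.045). Spdef had deposited signals of 343 and 385.2 in Satin, against 176.7 and 183.4 in Beige and 141.9 and 153.6 in BL6. The Satin arrays stood apart from all 4 controls here, also at the log2 levels of 8.14 and 8.41 in Satin, 7.94 and 7.68 in Beige, and 7.69 and 7.83 in BL6. Its difference of 0.49 (SE 0.17) had an unadjusted p = 0.019 and a limma adjusted p = 0.262, and it passed as deposited (1.02, adjusted p = 0.00802) and with the hybridization controls (1.03, adjusted p = 0.00704).

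The arrays were also compared within a replicate number, where no test is possible with 1 array per strain. Satin replicate 1 exceeded the mean of Beige and BL6 replicate 1 by 1.07 for Sox4, 1.00 for Sox21, 0.71 for Foxa1, 0.53 for Gata4 and 0.33 for Spdef. For replicate 2 the corresponding values were 1.16 for Sox4, 0.68 for Sox21, 0.57 for Foxa1, 0.09 for Gata4 and 0.65 for Spdef. These values are of the brightest probe set of each gene. The other 5 Sox4 probe sets gave 0.62, 0.60, 0.31, 0.66 and 1.02 for replicate 1, and 0.66, 0.14, 0.24, 0.415 and 0.655 for replicate 2 in the same order, so the values of 4 of these 5 were smaller among the arrays with many pancreas transcripts. The dimmer Gata4 probe set gave 1.32 for replicate 1 and 0.51 for replicate 2. Within each replicate number Satin exceeded both controls for 7 of the 10 genes, as it did for 33% of all genes tested for replicate 1 and 32.1% for replicate 2, with Foxa2 among them for replicate 1 alone and Pdx1 for replicate 2 alone. In a fit without Satin replicate 2 and BL6 replicate 2, the arrays with the most pancreas signal, Sox4 (adjusted p = 0.00532), Sox21 (0.0477) and Foxa1 (0.0211) were called. That fit was added after the marker levels were seen and takes its spread from the 2 Beige arrays alone; it called 458 of all genes.

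**Figure D3:**
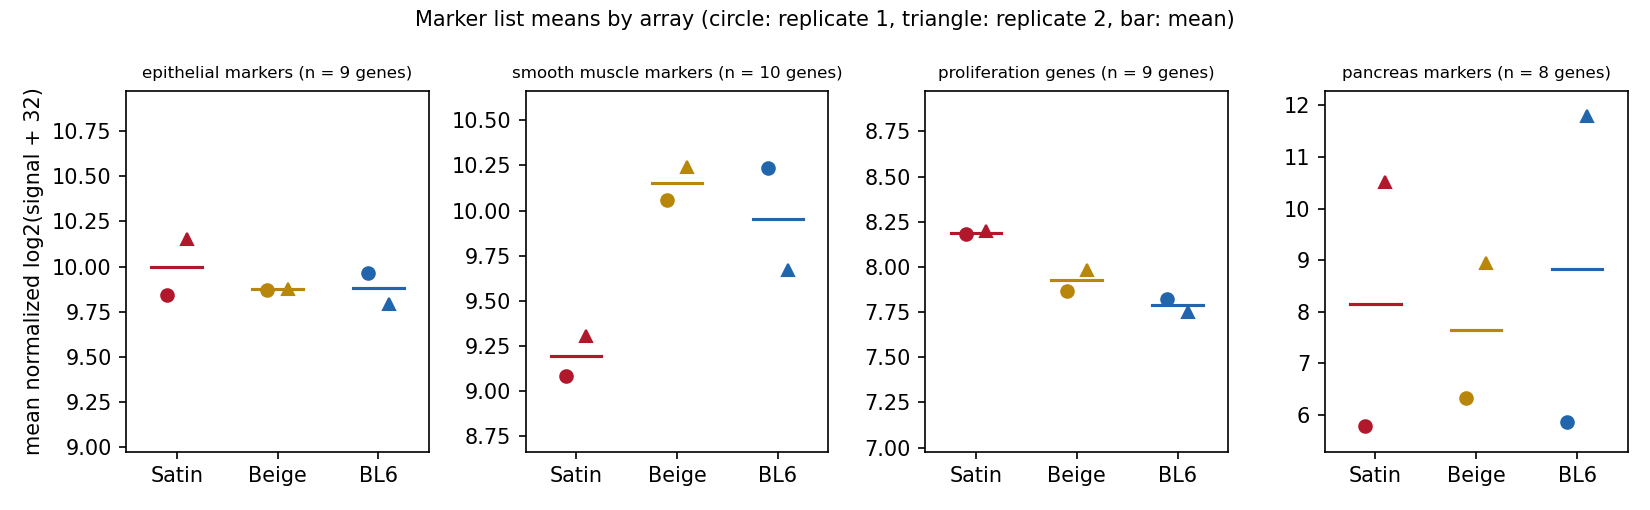
Mean log2 level of 4 marker lists on each array (y axis, mean normalized log2(signal + 32), with a wider span for pancreas) by strain (x axis), with a circle for replicate 1, a triangle for replicate 2 and a bar for the mean. Smooth muscle markers are lower and proliferation genes higher on both Satin arrays than on the controls, and pancreas markers are higher on each replicate 2 array.

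Markers of other cell types moved with strain as well. Of 10 smooth muscle markers 4 fell in Satin and all 10 lay below 0 (median -0.92), with a list mean of 9.09 and 9.31 in Satin, 10.06 and 10.24 in Beige, and 10.23 and 9.67 in BL6. Their summed deposited signal was 10303.9 and 11166.1 in Satin, 13162.1 and 19150.7 in Beige, and 13805.6 and 10415 in BL6. Of 9 proliferation genes 1 rose, Ube2c, and 7 lay above 0 (median 0.46), and their list mean was 8.18 and 8.20 in Satin, 7.87 and 7.98 in Beige, and 7.82 and 7.75 in BL6. General epithelial markers had a list mean of 9.84 and 10.15 in Satin, 9.87 and 9.88 in Beige, and 9.96 and 9.80 in BL6, with overlap and 0 of 9 called by limma (median -0.04). Squamous markers of the forestomach (0 of 6 called), leukocyte markers (0 of 9), fibroblast markers (0 of 10) and pancreas markers (0 of 8) had medians of -0.02, 0.28, -0.18 and 0.07, and of 8 intestinal markers 2 fell (median -0.19). The part of these shifts in the level of Sox4 or of the other 9 genes was not tested.

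Other regulators of gut epithelial fate were examined as a list of 26 genes, of which 16 were tested and 0 were called by limma, with 9 above 0 and a median of 0.17. The smallest p-values among them were those of Tcf7l2, a Wnt effector (0.80, SE 0.24, adjusted p = 0.172), and Esrrg, a nuclear receptor of parietal cells (1.01, SE 0.32, adjusted p = 0.201). Of 5 tested among 10 regulators of endocrine cells 0 were called by limma and 4 lay below 0 (median -0.26). Neurog3, the factor that starts endocrine fate, differed by -0.88 (limma adjusted p = 0.227) and Isl1 by -0.30 (limma adjusted p = 0.654). Neurog3 was dim, with mean log2 levels of 5.32 in Satin, 6.35 in Beige and 6.05 in BL6, and its Satin mean lay below the filter. The summed deposited signal of the 7 endocrine regulators on the array was 365.1 and 200.6 in Satin. It was 293.3 and 322.4 in Beige, and 265.3 and 206.8 in BL6, so the Satin arrays lay on both sides of the controls. At an unadjusted p under 0.05 stood 12.6% of all genes tested.

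Genes of the cells that these factors specify did not all follow one direction. Among 10 tested of 11 genes listed for gastric mucous cells, 1 rose and 1 fell (median 0.04). The list holds secreted products and also genes that are not secreted, such as Muc1, Ern2 and Creb3l4. Bpifb1, a secreted protein of mucous glands, differed by 4.37 (SE 0.46, limma adjusted p = 0.00234), and Muc5ac, the surface mucin, by -4.34 (SE 0.15, limma adjusted p = 1.31e-06). Of 10 hormone and granule genes, 3 fell and all 10 lay below 0 (median -0.75). Among them Gast, the gastrin gene, for whose cells Pdx1 is needed, was at 10.63 in Satin, 12.14 in Beige and 11.94 in BL6 (difference -1.40, SE 0.23, adjusted p = 0.0187), and Chgb and Chga, granins of the secretory granule, differed by -2.35 and -1.11. Of 9 parietal cell genes 0 were called by limma, all lay above 0 (median 0.34), and the anion exchanger gene Slc4a2 had the smallest p (0.93, adjusted p = 0.0793), followed by Esrrg. Foxq1 itself was at 10.46 and 10.41 in Satin, 9.88 and 9.38 in Beige, and 10.13 and 10.17 in BL6 (difference 0.55, SE 0.16, adjusted p = 0.167); this level says nothing of whether the allele is mutant.

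For Sox4 and Sox21, the members with the smallest p, the genes with the most similar profile over the 6 arrays were sought among 9385 others. Likeness was the root mean square distance of log2 levels after each gene's mean was subtracted. Closest to Sox4 were Lsm12 (0.10), Tmem98 (0.14) and Sema4g (0.14), which differed in Satin by 1.04, 1.02 and 0.83. Closest to Sox21 were Sfpq (0.11), Rab5b (0.12) and AU020206 (0.12). With 6 arrays many genes can lie this close, and the likeness is a description.

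**Figure D4:**
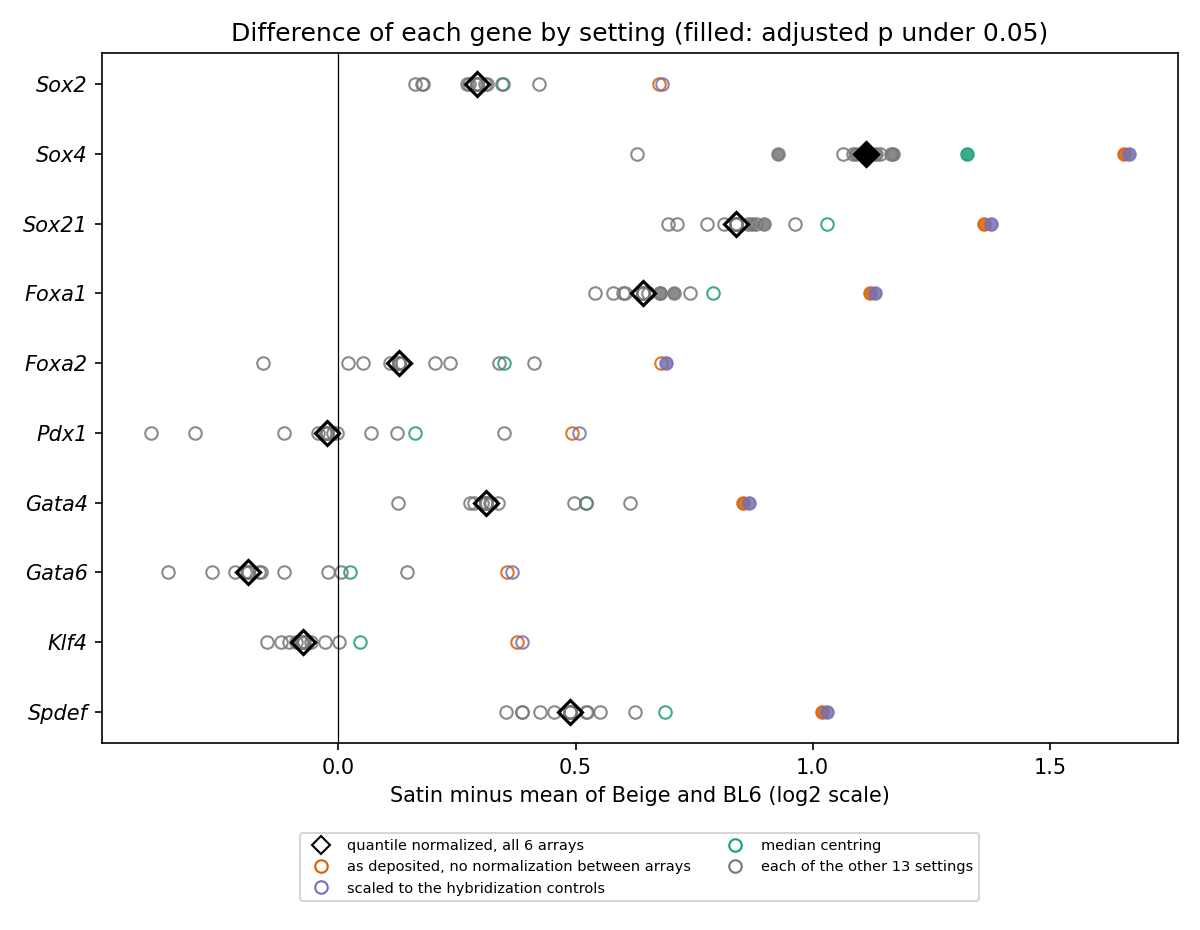
Difference between Satin and the mean of Beige and BL6 (x axis, log2 scale) for the 10 genes (y axis) under 16 other settings (circles) and as reported (diamond); a filled symbol has an adjusted p under 0.05. Sox4 lies between 0.63 and 1.67 in all of them, while Foxa2, Pdx1, Gata6 and Klf4 lie on both sides of 0.

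The settings differed most in how arrays were scaled to each other. As deposited all 10 genes lay above 0 (median 0.77) with 5 called, Sox4, Sox21, Foxa1, Gata4 and Spdef. In that setting 16.3% of all genes were called (15.6% higher), and the median of all genes was 0.43. Relative to the median of all genes, the median of the 10 genes was 0.34 higher as deposited, with the hybridization controls and with median centring, and 0.30 higher as reported. Sox4 was called in 10 of the 16 other settings and Sox21 and Foxa1 in 4 each. All settings reuse the same arrays. The calls of Sox21 and Foxa1 include those as deposited and with the hybridization controls. There 1531 of 9388 and 1982 of 9385 genes were called. Sox2, Sox4, Sox21, Foxa1, Gata4 and Spdef lay above 0 in all 16.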

How the data were processed

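Trizol-extracted antral RNA was turned into biotinylated cRNA, per the labels' protocols. The authors deposited 1 table of linear intensities, 1 per probe set and array. The sources used here give neither the summary algorithm nor any scaling or detection call. Arrays were assigned to strains by title, and 0 sample columns were left unused.

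The 64 control probe sets were left out. Values were log2(signal + 32), quantile normalized between arrays. Symbols came from the platform annotation: 20380 probe sets had 1 symbol, 691 several and 1555 none. The brightest probe set stood for a gene, and genes in the lowest 30% of probe set means (below 5.74) were dropped, which left 9395 genes, all 10 members among them, and 18 of the members' 19 probe sets. Strains were compared with limma 3.58.1 in R 4.3.3 (lmFit, eBayes with trend, two-sided, 3 residual degrees of freedom), with Benjamini-Hochberg adjustment over all genes, or over all probe sets where stated. The number of arrays limits the precision. Other scalings, pseudocounts of 16 and 100, no filter, averaged probe sets, no trend, a replicate block and the omission of each array were tried. On simulated data with 200 of 9395 genes changed in Satin, 28.3%, 82.2% and 94.6% of genes shifted by 1, 2 and 3 (log2) were recovered. The simulated noise was independent between arrays, with spreads shuffled across genes and so without an intensity trend. These rates therefore do not apply to a gene of a given brightness. Named genes are the members, from each pathway list the called genes (at most 4) or the 2 with the smallest p, Foxq1 and Muc5ac, the most similar profiles, and Ube2c and Tff1, named after their values were seen. Members and lists were chosen with earlier results of these data known. Promoter sequences are RefSeq's (GRCm38.p6).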

Additional observations from a re-analysis of the deposited data

How the results depend on the processing

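Against both controls, Sox4 was the 1 gene of 10 called. The count was 5 as deposited, 6 with the hybridization controls, 0 when the probe sets of a gene were averaged, 0 without the trend, and 0 to 2 with 1 array left out. Against Beige (1 called) it was 2 as deposited, 3 with the hybridization controls, 0 when probe sets were averaged or without the trend, and 0 to 1 with 1 array left out. Against BL6 (1 called) it was 5 as deposited or with the hybridization controls, 0 without a filter, when probe sets were averaged or without the trend, and 0 to 1 with 1 array left out. Of the 18 tested probe sets, 1 was called, 8 as deposited or with the hybridization controls, and 0 without the trend. As deposited 1531 of 9388 genes were called against both controls, and with the hybridization controls 1982 of 9385. The share of all probe sets called there was not computed. Without Satin replicate 2 and BL6 replicate 2, chosen after the data were seen, 3 genes were called against both controls, 2 against Beige, and 3 probe sets.

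Over all genes, 135 calls against both controls became 1531 as deposited, 1982 with the hybridization controls, 36 without the trend, 458 without Satin replicate 2 and BL6 replicate 2, and 28 to 298 with 1 array left out. Against Beige, 84 became 191, 179, 18, 312 and 8 to 146 in the same order, 52 with median centring, 49 without a filter and 37 with averaged probe sets. Against BL6, 70 became 1875, 2586, 12, 444 and 22 to 224, and 45, 33 and 22 in the last 3 settings. Beige against BL6 had 0 calls, 3 as deposited, 92 without Satin replicate 2 and BL6 replicate 2, and 0 to 8 with 1 array left out. The cause of these shifts was not tested, except that the 4-array fit rests on 1 pair of arrays for its spread.

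Some genes changed sign against both controls. Gata6 (-0.19) was at 0.36 as deposited, 0.024 with median centring, 0.37 with the hybridization controls, 0.14 with averaged probe sets and 0.006 without Satin replicate 2 and BL6 replicate 2. Klf4 (-0.07) was at 0.38, 0.045 and 0.39 in the first 3 of these and between -0.15 and 0.001 (without Beige replicate 2) with 1 array left out. Pdx1 (-0.02) was at 0.49, 0.16, 0.51 and 0.12 in the first 4, 0.35 without Satin replicate 1 and 0.07 without BL6 replicate 2, and between -0.395 and 0.35 over all omissions. Foxa2 (0.13) was at -0.16 without Satin replicate 1 and at most at 0.41 with another array left out, at 0.68 as deposited and at 0.69 with the hybridization controls, where it was called.

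Arrays share only a replicate number. Deviations from the strain means correlated across genes at 0.189, 0.272 and 0.118 between same-numbered arrays. With the replicate block, Sox4 was called against both controls (adjusted p = 0.0163) and against Beige, and the call against BL6 was lost (adjusted p = 0.0585, 0 of 10 genes). The block gave 123, 66, 48 and 0 calls over all genes in the 4 comparisons. With 2 arrays per strain, dim probe sets, such as those of Sox4 beside its brightest, have large errors.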
